A study of Mus musculus with 8 samples.

Results

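The odorant receptor (OR) genes numbered Olfr161 to Olfr206 lie on mouse chromosome 16 and were taken as the rows of the array table that carry a single symbol in this number range, pseudogenes allowed. The rule found 32 rows, 1 for each of 32 genes, out of 35557 rows in the table, of which 23410 have a gene symbol and were tested. Affymetrix Mouse Gene ST arrays were hybridised with RNA from the olfactory mucosa of mice at postnatal day 1, with 8 samples numbered A1 to A8 in their titles. The knockout group has the 123Cre transgene and 2 floxed Emx2 alleles, 123Cre:Emx2(fl/fl) (4 samples, A2, A3, A7 and A8, called knockouts 1 to 4). The control littermates are 2 samples with the transgene and 1 floxed allele, 123Cre:Emx2(fl/+) (A1 and A6, controls 1 and 4), and 2 Cre-negative samples in which both alleles are floxed, Emx2(fl/fl) (A4 and A5, controls 2 and 3). All samples carry at least 1 floxed Emx2 allele on a mixed 129 x C57BL/6J background, mice of both sexes were used in the study, and each control can lose at most 1 allele. Cre in 123Cre mice starts in immature olfactory sensory neurons (OSNs) and reaches a fraction of them, so other cells of the mucosa and the remaining OSNs keep Emx2. The controls are littermates of the knockouts and several litters were used, but the labels tie no sample to a litter and do not say whether a sample is a single animal. The p-values therefore measure sample-to-sample spread, part of which may be technical.

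ORs are G-protein-coupled receptors that detect odours, and each OSN expresses a single allele of a single OR gene. OR genes stand in clusters on many chromosomes, and neighbours within a cluster are often close relatives that arose by duplication. Homeodomain sites and Olf1/Ebf sites are known elements of OR promoters and enhancers, and the homeodomain proteins Lhx2 and Emx2 can bind the former. The comparison asks whether OSNs that lose Emx2 contain different amounts of these OR mRNAs. In whole mucosa, fewer cells that chose a receptor and less of its mRNA per cell cannot be told apart.

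The reference gene table (assembly GRCm38.p6) places 42 genes of this number range on chromosome 16. Of these, 32 have a row of their own, all matched by gene number, 3 (Olfr169, Olfr194 and Olfr205) appear only on rows that the annotation gives to several genes, and 7 have no row, all of them pseudogenes. By their order on the chromosome, with gaps of over 1000000 bases as breaks, the measured genes fall into 3 runs. Olfr161 is the only gene of the number range with a row in the first run, which also holds Olfr15, a gene outside that range. The 7 genes from Olfr164 to Olfr171 form the next run, and 24 genes from Olfr172 to Olfr206 form the last. Most genes of the last run belong to the receptor subfamilies MOR182, MOR183 and MOR184, with 7, 7 and 8 rows. The 2 rows for Olfr192 and Olfr197 are transcribed pseudogenes in the reference. All are class II receptors, the class typical of land vertebrates, apart from Olfr192, which has no subfamily name there.

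The knockout samples had less of the targeted mRNA. Emx2 stood between 10.72 and 11.00 in controls and between 9.80 and 10.01 in knockouts on the deposited log2 scale, a decrease of 48.0% (adjusted p = 0.0014 by limma over all rows tested). Lhx2 averaged 12.52 ± 0.0399 in controls and 12.51 ± 0.0848 in knockouts (SD, n = 4 each). Omp, the marker of mature OSNs, lay between 12.80 and 13.07 on all arrays. Gap43, the marker of immature OSNs, lay between 11.48 and 11.65 in controls and between 11.25 and 11.41 in knockouts, without overlap, a difference of -0.23 (SE 0.0684, unadjusted p = 0.0095, adjusted p = 0.564 by limma). Both neuron markers were thus present in the labelled tissue. Knockout 2 stood apart from the other arrays, with a mean correlation of 0.978 with them against 0.987 to 0.990 for the rest, and many results below are also given without it.

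No chromosome 16 OR mRNA passed an adjusted p of 0.05 between knockout and control by limma. For nearly all, the difference was too small to separate from the spread between samples even without adjustment. The differences, knockout minus control, ran from -0.44 for Olfr206 to 0.46 for Olfr183 on the log2 scale. Of the 32 rows, 1 had an unadjusted p under 0.01, the study's threshold, and it was lower in the knockout. The share of all 23410 rows past this p was 1.74%, and that of the 1003 other OR rows was 4.79%. Lower values past this p made up 1.3% of all rows and 3.99% of other OR rows. At an unadjusted p under 0.05 there was the same single row, where 6.1% of all rows and 16.3% of other OR rows passed. With adjustment over all rows tested, limma called 0 members, with adjusted p-values of at least 0.457, against 0.359% of all rows and 0.199% of other OR rows. The methods' t-test also called 0 members at an adjusted p under 0.05, and 1 had an unadjusted p under 0.05. In 0 of 32 rows did the knockout and control values fail to overlap, while 4.52% of all rows and 6.88% of other OR rows were without overlap.

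The direction of the differences was mixed. Values below 0 were found for 19 members and values above 0 for 13, with a median difference of -0.09, and 48.4% of all rows were below 0. Among other OR rows, 777 of 1003 (77.5%) were below 0 and the median was -0.19, while the median of all rows tested was 0.00. Without knockout 2, only 10 of the 32 members were below 0 and the median became 0.11, and the median of other OR rows became -0.07. The number of members past an unadjusted p of 0.01 was again 1 without that array, but a different one, Olfr171 in place of Olfr206, against 3.14% of all rows and 7.28% of other OR rows. The median also turned to 0.02 without control 4. The 95% interval of the difference lay between -1 and 1 for 30 of 32 members, the exceptions being Olfr183 and Olfr197, so a 2-fold change in either direction is outside the interval for those 30.

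**Figure D1:**
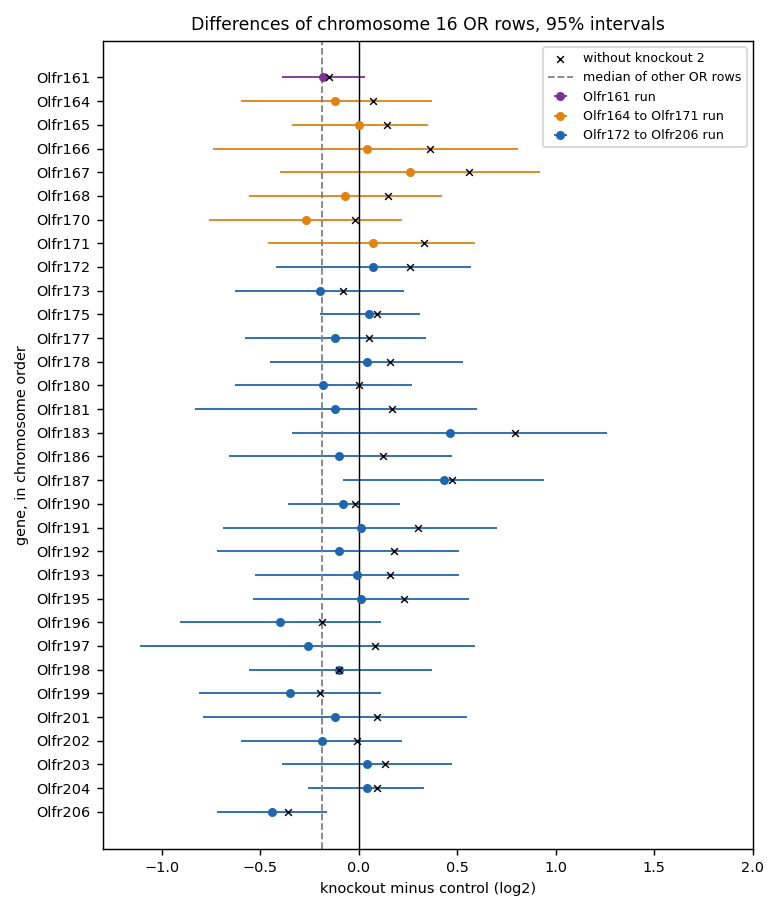
Difference between knockout and control in log2 units (horizontal axis) for the 32 members in chromosome order (vertical axis), with 95% intervals from limma coloured by run, the value without knockout 2 as a cross, and the median of other OR rows, -0.19, as a dashed line. The interval of Olfr206 alone excludes 0, and most crosses lie to the right of their points.

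The lowest member was Olfr206, the last measured gene of the long run and a receptor of the MOR182 subfamily. It stood at 7.49, 7.62, 7.69 and 7.80 in controls 1 to 4 and at 7.12, 6.96, 7.25 and 7.51 in knockouts 1 to 4. Knockouts 1, 2 and 3 were below every control, and knockout 4 was just above the lowest control. The difference was -0.44 (SE 0.123, 95% interval -0.72 to -0.16), a percent change of -26.2%, with an unadjusted p of 0.00619 and an adjusted p of 0.457 by limma. Its value stayed below 0 whichever sample was left out, from -0.54 to -0.36, with unadjusted p-values by limma from 0.000974 to 0.0202. It passed 0.01 in 2 of these 8 fits, and in the methods' t-test its unadjusted p was 0.0165. Relative to the other OR rows, by centring each array on them, the difference was -0.25 (unadjusted p = 0.12 by limma).

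Olfr204, a close neighbour of the same subfamily, gave a value near 0. Its values ran from 6.87 to 7.43 in controls and from 7.05 to 7.39 in knockouts, and its difference was 0.04 (95% interval -0.26 to 0.33). A further row is shared by the annotation among Olfr204, Olfr205 and Olfr206, and it differed by -0.21 (SE 0.0951, unadjusted p = 0.0536 by limma). Signal of such close relatives can be split between rows, so the difference of Olfr206 is uncertain to that extent.

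Olfr199 and Olfr196, the members next lowest to Olfr206, are in the same run. Olfr199, also of subfamily MOR182, stood at 6.40, 6.48, 6.80 and 6.90 in controls 1 to 4 and at 6.05, 5.84, 6.66 and 6.60 in knockouts 1 to 4. Each knockout of A1 to A4 was below the controls of those samples, and each of A5 to A8 below the controls of those, but the groups overlap when pooled. The pooled difference was -0.35 (SE 0.202, unadjusted p = 0.115), and with the sample set, A1 to A4 or A5 to A8, as a block it kept its size with an SE of 0.0856, an unadjusted p of 0.00276 and an adjusted p of 0.223 by limma. Without knockout 2 it was -0.20 (unadjusted p = 0.281 by limma), and relative to the other OR rows it was -0.17 (unadjusted p = 0.292 by limma). Olfr196, of subfamily MOR183, stood at 6.22, 5.90, 6.39 and 6.33 in controls and at 5.80, 5.18, 5.92 and 6.34 in knockouts. Its lowest value was that of knockout 2, and the difference of -0.40 (SE 0.223, unadjusted p = 0.107 by limma) became -0.19 without it.

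Olfr161, the single member with a row in its run, had the smallest SE of all 32. It stood at 7.46, 7.16, 7.24 and 7.47 in controls and at 7.14, 7.04, 7.27 and 7.15 in knockouts. The values overlapped, and the difference was -0.18 (SE 0.0928, unadjusted p = 0.0792 by limma). It was -0.32 against 123Cre:Emx2(fl/+) controls and -0.05 against Emx2(fl/fl) controls, a difference between control genotypes that was not tested. The next OR gene with a row along the chromosome, Olfr15, lies in the same run but outside the number range. Olfr15 stood between 10.91 and 11.63 in controls and between 11.97 and 12.37 in knockouts, higher in 4 of 4 knockouts than in any control, with a difference of 0.75 (SE 0.166, unadjusted p = 0.00154, adjusted p = 0.219 by limma). Olfr19, which stands between Olfr15 and the run of Olfr164 to Olfr171, differed by -0.15 (SE 0.28).

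The members with the highest differences were Olfr183 and Olfr187, of subfamily MOR183. Olfr187 stood at 7.05, 6.40, 7.44 and 7.06 in controls and at 7.29, 7.32, 7.20 and 7.86 in knockouts. Its difference was 0.43 (SE 0.225, unadjusted p = 0.0863 by limma), and it was above 0 in every fit that left out a sample, from 0.24 to 0.58. Relative to the other OR rows it was 0.62 with an unadjusted p of 0.01 by limma. Olfr183 stood at 5.73, 5.89, 5.84 and 6.56 in controls and at 6.28, 5.47, 6.99 and 7.12 in knockouts. Knockout 2 held the lowest value of all 8 samples and the other knockouts 3 of the 4 highest, so that the difference of 0.46 (SE 0.354, unadjusted p = 0.226 by limma) became 0.79 (unadjusted p = 0.0125) without that array and 0.93 with array weights (unadjusted p = 0.00302), where knockout 2 had a weight of 0.17. Within A1 to A4 the difference was 0.07 and within A5 to A8 it was 0.85.

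**Figure D2:**
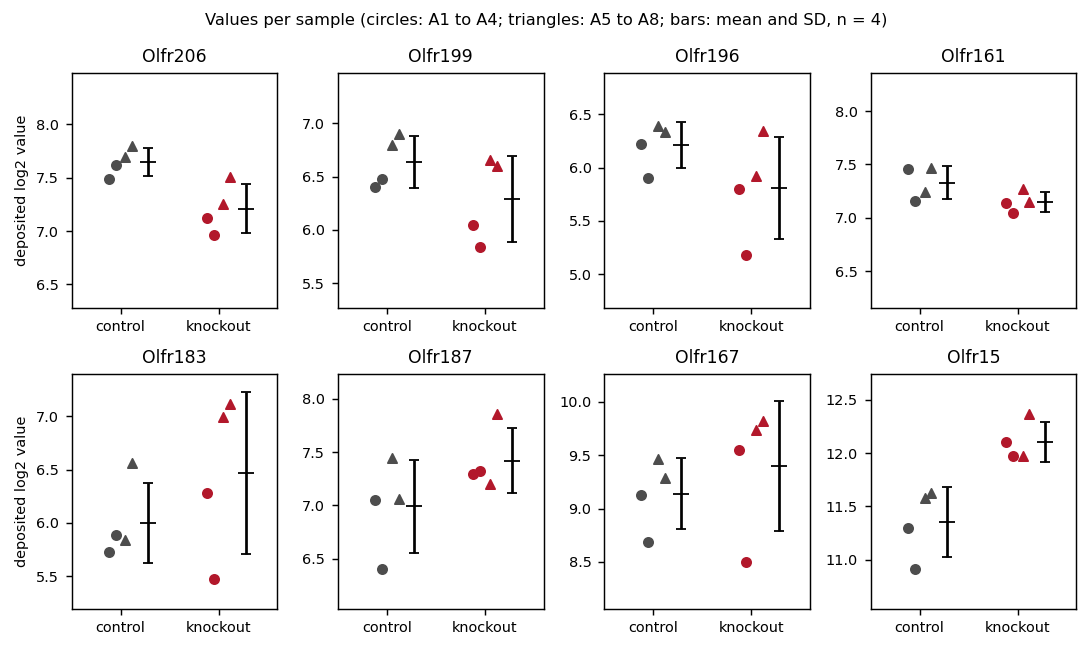
Deposited log2 values (vertical axis, with the same span in each panel) of 7 members and of the neighbouring Olfr15 in control and knockout samples, with circles for A1 to A4, triangles for A5 to A8, and mean and SD (n = 4) beside them. In Olfr206 and Olfr199 the knockouts lie below the controls of their own set, and in Olfr183 and Olfr167 knockout 2 lies far below the other knockouts.

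Sequence before the gene start is shown for 3 of these receptors, Olfr206 as the lowest and Olfr187 and Olfr183 as the highest, since homeodomain proteins such as Emx2 act through letters of this kind. Each is the 250 bases upstream of the RefSeq gene start on GRCm38.p6, 5′ to 3′ on the gene's strand, with the letters of any motif searched in capitals. Olfr206 lies on the minus strand at chr16:59345727-59345976, Olfr187 on the minus strand at chr16:59039750-59039999 and Olfr183 on the plus strand at chr16:58995154-58995403.
Olfr206: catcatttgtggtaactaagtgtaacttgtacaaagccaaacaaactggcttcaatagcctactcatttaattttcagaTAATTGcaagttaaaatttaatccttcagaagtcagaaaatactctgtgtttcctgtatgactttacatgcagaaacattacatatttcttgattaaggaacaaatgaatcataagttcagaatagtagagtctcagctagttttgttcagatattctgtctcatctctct
Olfr187: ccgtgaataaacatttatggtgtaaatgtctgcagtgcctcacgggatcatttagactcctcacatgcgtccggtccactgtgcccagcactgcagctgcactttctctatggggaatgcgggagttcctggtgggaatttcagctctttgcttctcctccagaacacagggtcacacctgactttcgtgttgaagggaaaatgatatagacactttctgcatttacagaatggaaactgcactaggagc
Olfr183: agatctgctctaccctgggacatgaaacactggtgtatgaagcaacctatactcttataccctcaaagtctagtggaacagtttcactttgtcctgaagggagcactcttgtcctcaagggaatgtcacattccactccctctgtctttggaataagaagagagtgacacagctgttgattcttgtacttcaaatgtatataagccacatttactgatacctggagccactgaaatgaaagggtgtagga
The Olfr206 sequence holds TAATTG once, starting at base -171 from the gene start, and no searched motif is in the other 2. Olfr206, Olfr187 and Olfr183 are among the members with the 3 lowest p-values in each direction. By that rule Olfr161, Olfr196 and Olfr167 would also have been shown, but Olfr167 has no window in the table. The gene models of Olfr161 and Olfr196 begin with the letters ATG, so that their windows may precede the first coding base only. No searched motif is in the Olfr161 window, and that of Olfr196 holds TAATTA once, at base -107. The letters ATG also occur within the 50 bases after the Olfr206 gene start. Whether the Olfr206 sequence precedes the start of transcription is therefore not known either.

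Windows of 250 bases before and 50 after the gene start were searched on both strands for 3 homeodomain motifs and for a palindromic Olf1/Ebf motif. The first homeodomain motif, TAATTA, reads the same on both strands. The next was TAATTG, which differs from it in the last letter, and the last was TAATGA. Of the 32 members, 23 have a window in the RefSeq table. At least 1 homeodomain motif was in 8 of these (34.8%), against 54.3% of 925 windows of other ORs and 19.9% of all 32851 windows. TAATTA was in 13.0% of member windows, TAATTG in 8.7% and TAATGA in 17.4%. The shares were higher in windows of other ORs, at 18.7%, 23.6% and 29.1%, and were 5.29%, 8.0% and 9.78% of all windows. The Olf1/Ebf motif was in 0 of 23, against 0.541% of other OR windows and 0.904% of all. The median difference was -0.12 for the 8 members with a homeodomain motif and -0.08 for the other 15. In 13 of the 23 windows the gene model begins with the letters ATG, as in 72.8% of windows of other ORs, so for these the window may precede the first coding base and not the start of transcription. In the other 10 member windows 3 held a homeodomain motif, against 59.1% of 252 such windows of other ORs.

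The 7 genes from Olfr164 to Olfr171 gave differences on both sides of 0, 3 below and 4 above. Their subfamilies, MOR270 to MOR273 and MOR279, are not found in the long run. The median over the 7 rows was 9.13, 8.69, 9.34 and 9.08 in controls 1 to 4 and 9.11, 8.20, 9.23 and 9.20 in knockouts 1 to 4. All 7 had their lowest value in knockout 2, and the median difference of 0.00 became 0.15 without it, with 1 of the 7 then below 0. Olfr170 had the lowest difference of the run, with 9.28, 9.11, 9.34 and 9.08 in controls against 9.11, 8.20, 9.23 and 9.20 in knockouts. Its difference of -0.27 (SE 0.217, unadjusted p = 0.249 by limma) became -0.02 without knockout 2. Olfr167 had the highest, with 9.13, 8.69, 9.46 and 9.29 in controls against 9.55, 8.50, 9.74 and 9.82 in knockouts. Knockouts 1, 3 and 4 were above every control, and knockout 2 was below every one. Its difference of 0.26 (SE 0.291, unadjusted p = 0.393 by limma) became 0.56 (unadjusted p = 0.0104) without knockout 2. Olfr171, chosen after its values were seen, differed by 0.07 with all arrays and by 0.33 without knockout 2 (unadjusted p = 0.00917 by limma).

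In the long run of 24 genes, 15 differences were below 0 and 9 above, with a median of -0.10, and of 0.09 without knockout 2. The subfamilies within it did not separate. Median differences were -0.12 over 7 MOR182 rows, -0.08 over 7 MOR183 rows and -0.05 over 8 MOR184 rows, and the ranges overlapped, from -0.44 to 0.04, from -0.40 to 0.46 and from -0.20 to 0.07. MOR183 held the highest and one of the lowest members. Olfr173 and Olfr180 of MOR184 and Olfr202 of MOR182 complete the members with the lowest p-values. Olfr173 stood at 9.91, 9.78 and 10.21 in controls 1, 2 and 4, with control 3 between the first and the last of these, and at 9.51, 9.41, 9.91 and 10.27 in knockouts, a difference of -0.20 (unadjusted p = 0.319 by limma). The later samples of both groups were the higher ones. Olfr180 stood at 8.44, 8.18, 8.80 and 8.64 in controls and at 8.36, 7.80, 8.52 and 8.66 in knockouts, a difference of -0.18. Olfr202 stood at 7.99, 7.98, 8.14 and 8.29 in controls and at 7.87, 7.37, 8.18 and 8.22 in knockouts, a difference of -0.19. All 3 overlapped between the groups, and without knockout 2 the differences were -0.08 for Olfr173, 0.00 for Olfr180 and -0.01 for Olfr202.

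The remaining members of the long run gave smaller or more variable differences. Those below 0 were Olfr197 at -0.26 (SE 0.374), Olfr177, Olfr181 and Olfr201 at -0.12 each, Olfr186, Olfr192 and Olfr198 at -0.10 each, Olfr190 at -0.08 and Olfr193 at -0.01. Those above 0 were Olfr172 at 0.07, Olfr175 at 0.05, Olfr178, Olfr203 and Olfr204 at 0.04 each, and Olfr191 and Olfr195 at 0.01 each. Of the run of Olfr164 to Olfr171, Olfr164 differed by -0.12, Olfr168 by -0.07, Olfr166 by 0.04 and Olfr165 by 0.00. Of all members, 11 had a mean level above 7.47, the limit of the dimmest 30% of rows tested. The other 21, among them Olfr206, Olfr199, Olfr196, Olfr161, Olfr183 and Olfr187, lay among those dimmest rows, with mean levels down to 4.03. A low value here may thus hold little signal from the gene itself.

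**Figure D3:**
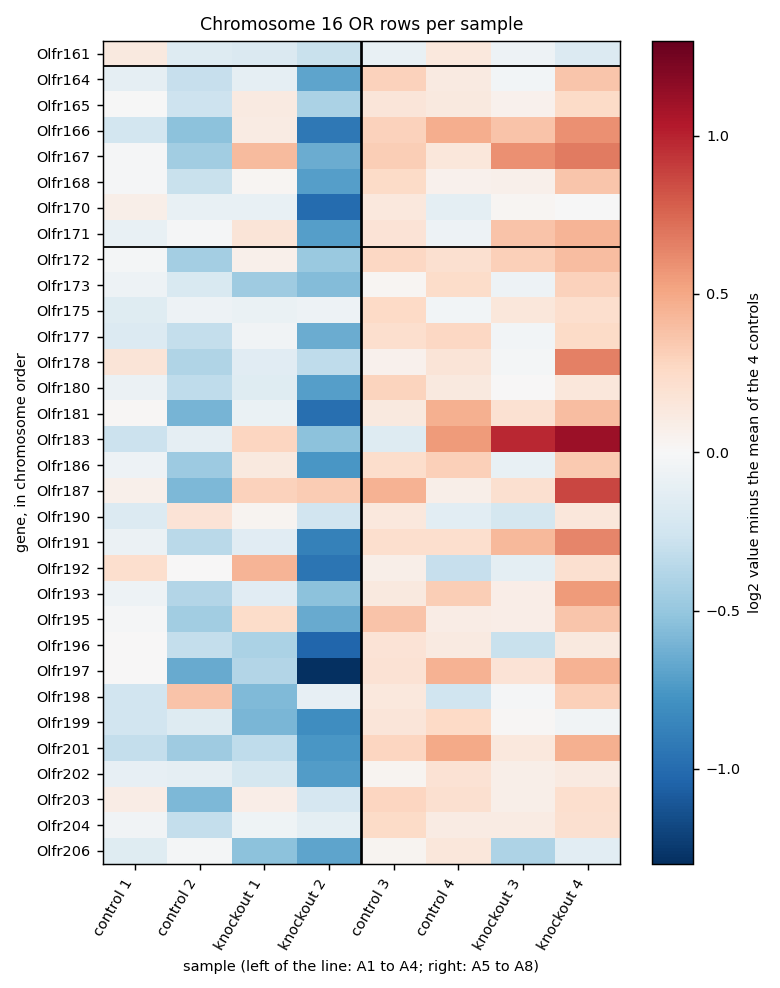
Log2 value of each member (rows, in chromosome order, horizontal lines between runs) in each sample (columns, A1 to A4 left of the vertical line) minus the mean of the 4 controls, from blue (lower) to red (higher). Most rows are blue in A1 to A4, deepest in knockout 2, and red in A5 to A8.

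The members varied with sample number more than with genotype. In a fit with genotype and sample set together, all 32 were higher in A5 to A8 than in A1 to A4, by 0.03 to 0.89 with a median of 0.45. Knockout 2, the lowest sample in 26 members, is in A1 to A4, and this contrast is not given without it. For Olfr192, at 0.03, knockout 2 stood at 5.86 and knockout 1 at 7.25, against 6.68 and 7.02 in knockouts 3 and 4. Its controls 1 and 2 stood at 7.03 and 6.81, against 6.88 and 6.51 in controls 3 and 4. Of all rows 44% were higher in A5 to A8, and of other OR rows 92.5%. Each set holds 2 knockouts, 1 control of each genotype, and nothing in the labels says what the numbers stand for. The median over the 32 rows was 7.01 and 6.75 in controls 1 and 2 against 7.26 and 7.27 in controls 3 and 4, and 7.12 and 6.61 in knockouts 1 and 2 against 7.22 and 7.37 in knockouts 3 and 4. Both groups thus show higher values in the later samples. In this fit 15 members were higher at an unadjusted p under 0.01 by limma and 0 lower. The background was 7.09% of all rows higher at this p, and 35% of other OR rows, whose median difference was 0.36. With adjustment over all rows, limma called 0 members and 0% of all rows (lowest adjusted p among members 0.0821, with 24 members higher at an unadjusted p under 0.05, against 15.5% of all rows and 57.4% of other OR rows), and the methods' t-test was not run on this contrast. Olfr201, at 0.81 (SE 0.118), and Olfr199, at 0.55 (SE 0.0856), had the lowest p-values.

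Genes of OSNs outside the OR family differed between A5 to A8 and A1 to A4 in both directions. The lists used here were chosen with earlier results of these data known. Of 18 mature OSN genes the mean level per array was 11.55 and 11.49 in controls 1 and 2, 11.60 and 11.57 in controls 3 and 4, 11.40 and 11.38 in knockouts 1 and 2, and 11.34 and 11.48 in knockouts 3 and 4. The difference, A5 to A8 minus A1 to A4, ran from -0.25 for Gng13 to 0.55 for Slc17a6 over the mature OSN genes and from -0.28 for Crmp1 to 0.51 for Neurod1 over 15 immature OSN genes. Over 14 measured genes of olfactory transduction it ran from -0.25 for Gng13 to 0.47 for Pde1c, with a median of -0.01. Over 20 genes of OR choice and trafficking it ran from -0.23 for Atf5 to 0.44 for Lbr, with a median of 0.01. The median was 0.00 in the mature and in the immature OSN list, against 0.45 for the chromosome 16 members. Only the highest of the listed genes had differences near that of the members, and Omp differed by 0.01 and Lhx2 by -0.01. Between genotypes, the median difference of the mature OSN genes was -0.11, with 16 of 18 below 0, and that of the immature OSN genes was -0.12, with 13 of 15 below 0. At an unadjusted p under 0.05 by limma, 5 immature and 4 mature OSN genes were lower, against 3.06% of all rows. In the mature list 1 gene, Cnga4, was higher at this p, at 0.27, against 3.04% of all rows. In the immature list 2 genes were lower at an unadjusted p under 0.01 by limma, against 1.3% of all rows. These were Gap43 and Ablim1, the latter at -0.23. In the mature list 3 genes were lower at an unadjusted p under 0.01 by limma and 0 higher, against 1.3% of all rows lower: Ano2, which carries the chloride current of the odour response, at -0.35, S100a5, which binds calcium, at -0.52, and the receptor-trafficking protein Rtp2 at -0.40. Ano2, also in the mature list, was the single transduction gene past this p. Those of OR choice and trafficking were Rtp2, also in the mature list, and Emx2, the deleted gene itself. Of these, Emx2 also passed with adjustment over all rows. With each array centred on the 18 mature OSN genes, which moved the median of all rows by 0.15, the median of the chromosome 16 members was 0.06 and 9 of 32 were below 0.

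**Figure D4:**
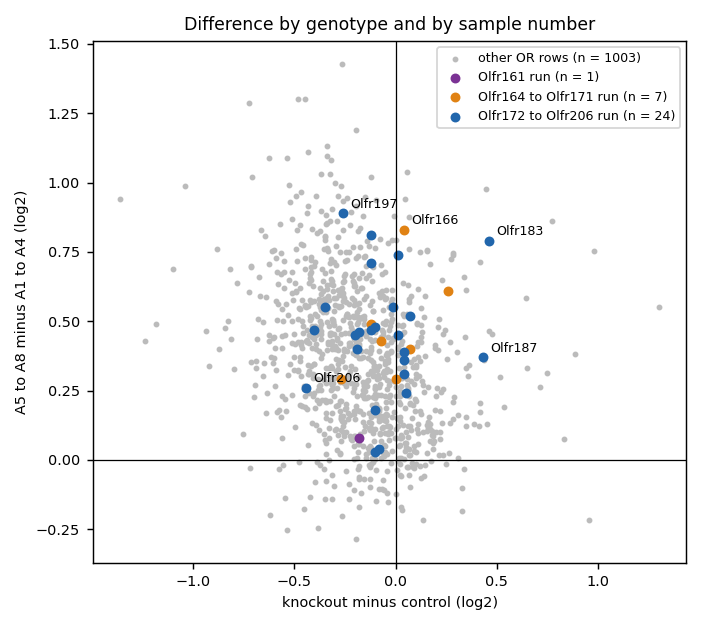
Difference between A5 to A8 and A1 to A4 (vertical axis, log2) against the difference between knockout and control (horizontal axis, log2), from the fit with both terms, for the members by run and for 1003 other OR rows in grey. All 32 members lie above 0 on the vertical axis, and they lie on both sides of 0 on the horizontal axis.

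Since sample number and genotype are balanced, the genotype difference can be read within each set. Within A1 to A4 it was below 0 for 24 of 32 members with a median of -0.18, and within A5 to A8 for 16 of 32 with a median of 0.00. For other OR rows the medians were -0.29 and -0.08. Knockout 2 is 1 of only 2 knockouts in A1 to A4, and the medians within that set are not given without it. The sign was the same in both sets for 13 members below 0 and 5 above. Olfr206 was among the former, at -0.51 and -0.37, as were Olfr199 at -0.49 and -0.22 and Olfr196 at -0.57 and -0.23. Olfr187 was among the latter, at 0.58 and 0.28, as was Olfr167 at 0.11 and 0.41. With the set as a block, 2 of 32 members had an unadjusted p under 0.01 by limma, Olfr206 (0.000764) and Olfr199, against 2.64% of all rows and 13.1% of other OR rows. The lowest adjusted p was then 0.102, that of Olfr206, so 0 members passed, against 0.47% of all rows and 1.79% of other OR rows. At an unadjusted p under 0.05 there were 4, against 8.66% of all rows and 31.7% of other OR rows. Taking out knockout 2 as well, an alternative chosen after the data were seen, gave 5 members past an unadjusted p of 0.01, against 4.19% of all rows and 12.7% of other OR rows. Olfr206 and Olfr199 were lower, and Olfr167, Olfr171 and Olfr183 were higher.

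Knockout 2 set much of the spread among knockouts. It held the lowest value of the 8 samples in 26 of 32 members (81.2%), and in 65.9% of other OR rows. The SD was larger in knockouts than in controls for 27 of 32 members, with medians of 0.429 and 0.265. Among lists of 3 markers each, the mean for muscle was highest in this sample (8.42, against 7.80 to 8.22 elsewhere) and that for olfactory bulb lowest (7.29, against 7.38 to 8.20). None of the marker lists for sustentacular cells, ciliated respiratory cells, vomeronasal neurons, olfactory bulb, muscle or macrophages held a gene past an unadjusted p of 0.01 between genotypes by limma. All 3 olfactory bulb markers were nonetheless below 0, with a median of -0.32 (Slc17a7 at -0.41, unadjusted p = 0.0178 by limma). All 3 ciliated cell markers were above 0, with a median of 0.22, as were all 3 muscle markers, with a median of 0.15 (Ckm unadjusted p = 0.0339 by limma). These medians are larger in size than the -0.09 of the chromosome 16 members. Their part in the results was not tested.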

How the data were processed

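RNA from olfactory mucosa was measured on 8 arrays. The authors deposited log2 values, 1 per transcript cluster, made with Affymetrix Expression Console per the labels (version, background correction and normalization not given in the sources used here). Nothing else was done to the values. Array medians lay between 8.00 and 8.13, and no pair of arrays was identical (root mean square difference at least 0.248). Precision is limited by how few arrays there are.

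All 23410 rows with a symbol in the platform annotation entered a two-sided limma fit (limma 3.58.1, R 4.3.3, functions lmFit and eBayes), knockout against control with no covariate, with Benjamini-Hochberg adjustment over these rows. Rows with several symbols (1621) name no gene. The procedure was tested on simulated data. The members, lists and motifs were chosen with earlier results of these data known. Full values are given for members past an unadjusted p of 0.01 or, as fewer than 10 passed, the 10 with the lowest p, and for the extremes of each run. The design also called for protein sequences, which were not used here. The alternatives tried were quantile normalization, the methods' t-test, centring on mature OSN genes, on rows outside the OR family or on other OR rows, leaving out the dimmest 30% of rows, all rows, array weights, robust fitting with a variance trend, either control genotype, the sample set (A1 to A4, A5 to A8) as a block or alone, and each sample left out. The promoter sequences are RefSeq's (GRCm38.p6). Promoter windows, gene order and the gaps between runs are those of that assembly, and no probe coordinates are given, since the build used for the array annotation is unknown.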

Additional observations from a re-analysis of the deposited data

Results flagged for a closer look

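Of 40 groups of 4 samples examined (11 members, 6 other genes and 3 medians, each in controls and in knockouts), 2 held a sample far from the other 3, its gap to the nearest being over Dixon's 95% critical share of the range. Chance gives about 1 in 20. Both were knockout 2: Olfr170 stood at 8.20 there, against 9.11 to 9.23 in the other knockouts, and the median over the 7 genes from Olfr164 to Olfr171 also stood at 8.20, against 9.11 to 9.23. In that run Olfr170 is the middle value in these samples, so the 2 values are those of the same row.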

How the results depend on the processing

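No paired analysis was possible because the labels give no replicate numbers shared by the groups. The number of members past an adjusted p of 0.05 was 0 in every fit run. The number past an unadjusted p of 0.01, which was 1, became 0 against 123Cre:Emx2(fl/+) or Emx2(fl/fl) controls alone, within A1 to A4, with arrays centred on mature OSN genes or on other OR rows, in the methods' t-test and without the dimmest rows (11 members left). It was 1 with array weights (Olfr183) and within A5 to A8 (Olfr167), in place of Olfr206, 2 with the sample set as a block, 5 with that block without knockout replicate 2, and 0 to 1 when 1 sample was left out, with 0 without knockout replicates 1 or 3 or control replicates 2, 3 or 4. The median over the 32 members ran from -0.21 without knockout replicate 4 to 0.11 without knockout replicate 2. Olfr161, the single member row of its run, was -0.32 and -0.05 against the same control genotypes. It was -0.03 with centring on mature OSN genes and 0.00 on other OR rows. Of the named members, the sign turned to values near 0 for Olfr161 (0.00) and Olfr180 (0.00) with centring on other OR rows, Olfr170 (0.01) within A5 to A8, and Olfr173 (0.00) and Olfr202 (0.00) with array weights. The causes were not tested.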

Other observations

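The remaining rows shared by several genes of the 2 longer runs stayed within their spread. That of Olfr169, Olfr170 and Olfr171 differed by -0.17 (SE 0.247) and, as for the other rows of its run, was lowest in knockout 2, at 8.87 against 9.94 to 10.05 in the other knockouts. That of Olfr194 and Olfr203 differed by -0.17 (SE 0.23) and was higher in A5 to A8 than in A1 to A4 by 0.63 (SE 0.0921).

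Against the 2 control genotypes separately, 24 of 32 members were below 0 relative to 123Cre:Emx2(fl/+) and 18 relative to Emx2(fl/fl). Members with unlike values were Olfr181 at -0.35 and 0.12, Olfr197 at -0.49 and -0.03, Olfr198 at 0.15 and -0.35 and Olfr190 at 0.08 and -0.23. Each genotype has 2 samples, and the difference between them was not tested. These 4 were chosen after their values were seen.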
